A study of Mus musculus with 14 samples.

Results

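The genes described are 10 ligands of the TGF-beta superfamily, chosen by gene symbol: Tgfb1, Tgfb2 and Tgfb3, which encode the TGF-beta isoforms; Bmp2, Bmp4, Bmp6, Bmp7 and Bmp10, which encode bone morphogenetic proteins (BMPs); and Inhba and Inhbb, which encode the beta subunits of activins and inhibins. Each symbol had 1 row, so all 10 were measured among the 20193 genes of the table. Total RNA was taken from HL-1 cells, a mouse line of atrial heart muscle cells that divides in culture and was derived from tumour tissue of a mouse with a viral oncogene driven by an atrial promoter. All cells grew in Claycomb medium with serum and norepinephrine, and all received siRNA at 10 nM with the lipid reagent RNAiMax. The 14 arrays fall into 3 groups: 6 with a scrambled siRNA (siScramble), 4 with siAirn-001.1 and another 4 with siAirn-001.2. The study targeted Airn, a long non-coding RNA transcribed antisense to Igf2r. What distinguishes the 2 siAirn reagents, and the time from transfection to extraction, are not stated in the labels. The labels speak of biological replicates, but nothing states that they came from separate cultures, so a p-value here reflects the spread among these arrays, which may be technical.

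Ligands of this family are made as precursors, cleaved by proprotein convertases and secreted as dimers. TGF-betas stay latent, bound to their propeptide and to latent TGF-beta binding proteins, until integrins, thrombospondin or proteases release them, whereas BMPs are held back mainly by secreted antagonists. The dimers bring together type II and type I receptor kinases, which phosphorylate SMAD2 and SMAD3 (TGF-betas and activins) or SMAD1, SMAD5 and SMAD9 (BMPs). In the heart, TGF-beta2 and BMP4 act in the formation of the valves and outflow tract, BMP10 in the growth of the ventricular wall and in the adult atrium, and TGF-beta1 in fibrosis.

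Values are RMA signals on the log2 scale, so a difference of 1 is a doubling. Airn had a mean signal of 11.98 ± 0.13 (SD, n = 6) in siScramble arrays, against 11.39 ± 0.53 (n = 4) for siAirn-001.1 and 11.29 ± 0.60 (n = 4) for siAirn-001.2. Airn was not called in limma with siAirn-001.1 (log2 change -0.59, adjusted p = 0.168), with siAirn-001.2 (-0.69, adjusted p = 0.193) or in their mean (-0.64, adjusted p = 0.0754). Arrays 1 and 2 of siAirn-001.1 and array 1 of siAirn-001.2 lay inside the siScramble range, so the groups are named by their labels. Of the siScramble arrays, 5 and 6 stood apart from 1 to 4, with correlations across genes of 0.9924 to 0.9957 against 0.9967 to 0.9983 within arrays 1 to 4. At 33.2% of all genes, and at 6 of the 10 ligand genes, arrays 5 and 6 did not overlap arrays 1 to 4. Of 10 atrial cardiomyocyte markers, 9 were measured and 7 of these lay above the median gene. No macrophage marker did. Endothelial markers were above it in 1 of 7 cases, fibroblast markers in 4 of 9 and smooth muscle markers, some of which cultured cardiomyocytes also express, in 4 of 5. In such bulk RNA, fewer cells of a type and less RNA per cell cannot be told apart.

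With siAirn-001.1, Tgfb2 and Bmp4 were each at about 40% of the siScramble level and Tgfb1 was higher by 1.59-fold. With siAirn-001.2, no ligand gene passed the test, and Bmp4 was higher by 2.03-fold than with siAirn-001.1. The 2 genes that fell and the 1 that rose are shown with their promoters, from 250 bases before to 50 bases after the start, read from RefSeq on GRCm38.p6. Of the 10 genes, 7 had a promoter in the table used, and the others are Bmp2, Bmp7 and Tgfb3. For Tgfb2 and Inhba the start used lies inside the annotated gene, which begins further upstream (Tgfb2 at chr1:186709697, Inhba at chr13:16004256). Sequence around those upstream ends was not searched. Capitals mark 3 motifs found on either strand: GGGCGG, the GC box; TATAAA, the motif of that name; and CACGTG, the E-box.

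Tgfb2, chr1:186705940-186706239, minus strand: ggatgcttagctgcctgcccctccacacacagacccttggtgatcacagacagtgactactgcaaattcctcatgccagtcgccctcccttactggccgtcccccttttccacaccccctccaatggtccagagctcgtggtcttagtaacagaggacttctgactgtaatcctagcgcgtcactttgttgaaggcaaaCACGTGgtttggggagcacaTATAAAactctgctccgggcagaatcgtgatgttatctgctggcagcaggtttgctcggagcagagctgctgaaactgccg

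Bmp4, chr14:46390620-46390919, minus strand: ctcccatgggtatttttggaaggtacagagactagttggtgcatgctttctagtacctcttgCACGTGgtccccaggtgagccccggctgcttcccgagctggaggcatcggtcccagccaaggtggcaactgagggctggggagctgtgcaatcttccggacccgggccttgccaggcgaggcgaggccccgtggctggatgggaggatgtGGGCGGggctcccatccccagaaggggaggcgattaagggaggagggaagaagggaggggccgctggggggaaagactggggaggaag

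Tgfb1, chr7:25686752-25687051, plus strand: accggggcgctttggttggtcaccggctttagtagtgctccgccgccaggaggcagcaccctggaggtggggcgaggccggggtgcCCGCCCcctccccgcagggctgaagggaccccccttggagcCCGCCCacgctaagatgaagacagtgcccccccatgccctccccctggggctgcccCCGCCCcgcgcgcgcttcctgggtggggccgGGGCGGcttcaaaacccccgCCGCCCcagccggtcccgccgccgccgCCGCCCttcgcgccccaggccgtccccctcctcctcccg

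The Tgfb1 promoter had 77.0% G and C bases and 6 GC boxes, against a median of 52.7% over 32851 promoters, of which 35.7% held a GC box. The promoters of Bmp4 (64.0% G and C) and Tgfb2 (54.3%) each held 1 E-box, starting at -188 and -51 from the start, a motif in 7.15% of promoters, and Bmp6, which was not called, held 1 at -127. Tgfb2 also had a TATA box at -31, a motif in 13.6% of promoters, and so did Inhba at -91. The palindromic SMAD box GTCTAGAC (0.213% of promoters), the cyclic AMP response element TGACGTCA (1.79%), the AP-1 site TGANTCA (7.81%) and the GC-rich SMAD site GGCGCC (11.9%), searched on both strands, were in none of the 7 windows. The short CAGA motif CAGAC, in 49.6% of promoters, was present in those of Tgfb2 and Bmp6. No motif overlapped another kind in these windows. These matches describe letters only.

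Tgfb2, 1 of the 3 TGF-beta isoforms, had the widest range of the 10 genes over the 14 arrays, from 8.24 to 10.36. In the siScramble arrays its lowest, median and highest signals were 9.52, 10.07 and 10.36. The siAirn-001.1 arrays 1 to 4 held 8.38, 8.24, 8.88 and 9.16, and the siAirn-001.2 arrays 8.99, 8.83, 10.13 and 10.06. All 4 siAirn-001.1 arrays lay below every siScramble array. With siAirn-001.2, arrays 1 and 2 lay below the siScramble range and arrays 3 and 4 inside it. The log2 change was -1.34 ± 0.26 (SE) with siAirn-001.1 (adjusted p = 0.00632 in limma), 39.6% of the siScramble signal. It was -0.50 ± 0.26 with siAirn-001.2 (adjusted p = 0.524).

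Tgfb1 encodes the isoform best known from tissue fibrosis. Its siScramble signals were 8.01 at the lowest, 8.18 at the median and 8.59 at the highest. They were 9.47, 9.13, 8.58 and 8.61 in siAirn-001.1 arrays 1 to 4 and 8.90, 8.87, 8.52 and 8.40 in siAirn-001.2 arrays 1 to 4. Arrays 1 and 2 of both reagents and array 4 of siAirn-001.1 lay above the siScramble range. The groups overlapped through siAirn-001.1 array 3, siAirn-001.2 arrays 3 and 4 and siScramble arrays 5 and 6. These siScramble arrays were higher than siScramble arrays 1 to 4 by 0.46. Tgfb1 rose by 0.67 ± 0.17 (SE) on the log2 scale with siAirn-001.1 (adjusted p = 0.0273 in limma), whereas the change with siAirn-001.2 was 0.40 ± 0.17 (adjusted p = 0.361). The siAirn-001.1 call was lost without siAirn-001.1 array 1 (0.50, adjusted p = 0.0912) or array 2 (0.61, adjusted p = 0.087) and without any single one of siScramble arrays 1 to 4 (0.62 to 0.66, adjusted p = 0.0553 to 0.066).

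Tgfb3, the third isoform, was at 9.98 ± 0.11 (SD, n = 6) with siScramble, between 9.77 and 10.10. It held 9.72, 9.44, 9.56 and 9.69 in siAirn-001.1 arrays 1 to 4, all below the siScramble range. In siAirn-001.2 arrays 1 to 4 it held 9.97, 9.64, 10.52 and 10.21, so 1 array lay below and 2 above that range. Neither change passed the test over all genes: it was -0.37 ± 0.13 (SE) with siAirn-001.1 (adjusted p = 0.103 in limma) and 0.11 ± 0.13 with siAirn-001.2 (adjusted p = 0.913). The first passed in the fits without siAirn-001.2 array 2 (adjusted p = 0.0344) or array 3 (0.0397).

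Bmp4, a ligand that signals through BMP type I receptors to SMAD1, SMAD5 and SMAD9, had tight siScramble values of 9.53 at the lowest, 9.65 at the median and 9.83 at the highest. The siAirn-001.1 arrays 1 to 4 held 8.53, 8.38, 8.15 and 8.38, and the siAirn-001.2 arrays 9.15, 8.94, 9.80 and 9.63. Every siAirn-001.1 array was below every siScramble array. With siAirn-001.2, arrays 1 and 2 were below the siScramble range and arrays 3 and 4 inside it, as for Tgfb2. Bmp4 fell by 1.30 ± 0.14 (SE) on the log2 scale with siAirn-001.1 (adjusted p = 6.62e-05 in limma), to 40.6% of the siScramble signal. An exact two-sided permutation of the array values gave p = 0.00476 for this difference, the smallest that 210 arrangements allow, among 40 such unadjusted tests of the ligand genes. Tgfb2 and Tgfb3, of which Tgfb3 was not called in limma, reached the same permutation p with siAirn-001.1. The change with siAirn-001.2 was -0.28 ± 0.14 (adjusted p = 0.467).

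**Figure D1:**
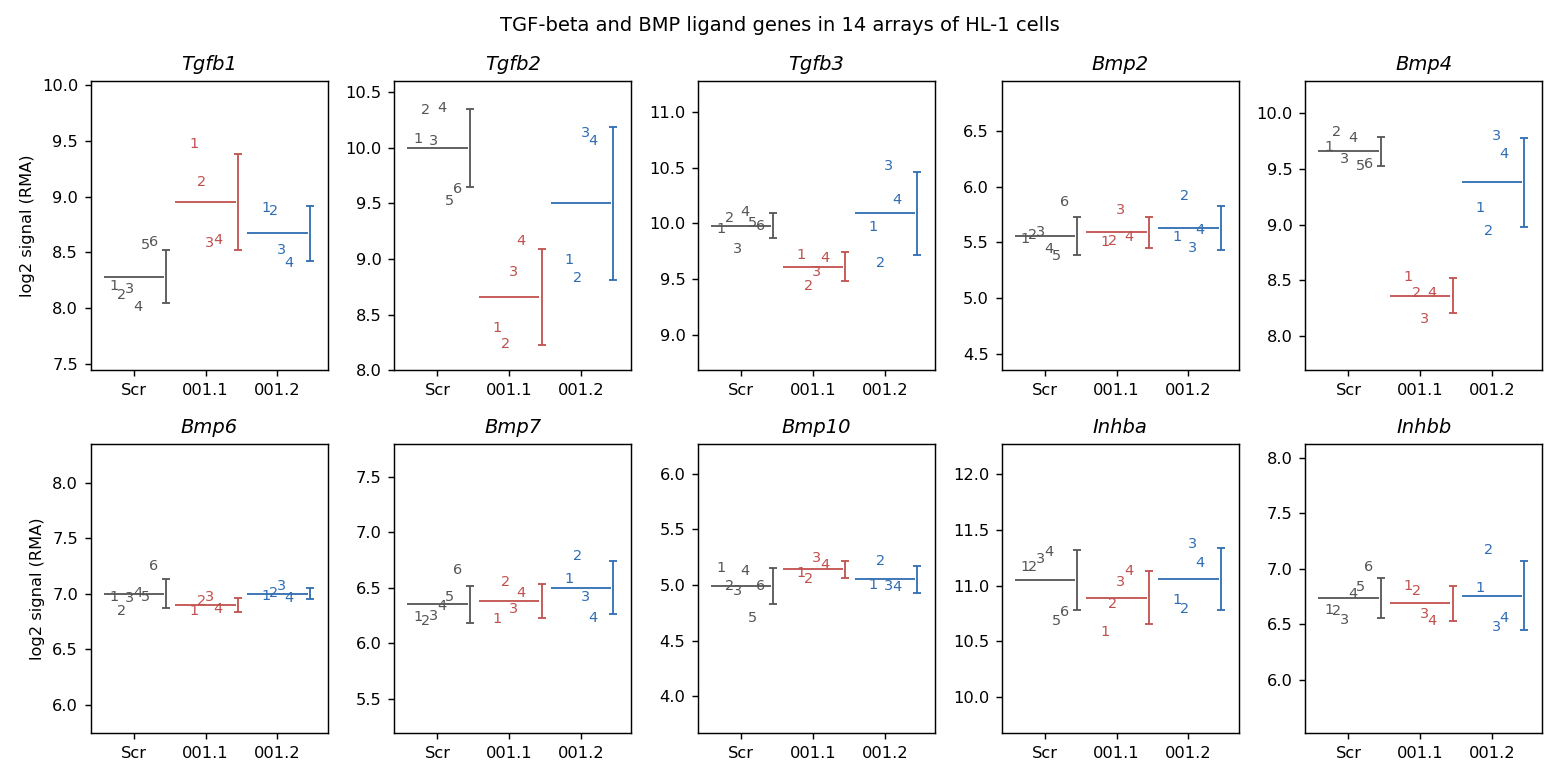
RMA log2 signal (vertical axis, the same span of log2 units in each panel) of the 10 ligand genes by group (Scr is siScramble, 001.1 and 001.2 are the siAirn reagents); each digit is 1 array and gives its replicate number, horizontal lines are group means and error bars are the SD. Bmp4, Tgfb2 and Tgfb3 in siAirn-001.1 lie wholly below siScramble, while siAirn-001.2 arrays 1 and 2 lie below arrays 3 and 4 for all 3 genes.

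The other BMP genes were low on the array scale and varied little. Bmp10, made mainly by atrial cardiomyocytes in the adult heart, had a mean signal above that of 10.7% of genes, and its values over all 14 arrays lay between 4.70 and 5.24. Its log2 changes were 0.16 ± 0.09 (SE; adjusted p = 0.367 in limma) with siAirn-001.1 and 0.06 ± 0.09 (adjusted p = 0.947) with siAirn-001.2. Bmp2, a close relative of Bmp4 that acts in the atrioventricular canal, lay between 5.38 and 5.92, with changes of 0.03 ± 0.10 and 0.07 ± 0.10 (adjusted p = 0.948 for each). Bmp6, known for its control of hepcidin in the liver, lay between 6.85 and 7.25, and Bmp7, a regulator of kidney and eye development, between 6.20 and 6.79. The changes were -0.10 ± 0.07 and 0.00 ± 0.07 for Bmp6 (adjusted p = 0.563 and 0.999) and 0.03 ± 0.11 and 0.15 ± 0.11 for Bmp7 (adjusted p = 0.938 and 0.735), with siAirn-001.1 first. RMA damps differences of dim probes, so small changes in these 4 genes may not be visible, above all in Bmp10 and Bmp2. The mean signal of Bmp2 was above that of 17.1% of genes, whereas Bmp7 and Bmp6 were above 31.0% and 42.1%.

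Inhba, which encodes the subunit of activin A, had a mean signal above that of 93.1% of genes. Its siScramble signals were 10.68 at the lowest, 11.17 at the median and 11.30 at the highest, and the lowest 2 were arrays 5 and 6. The siAirn-001.1 arrays 1 to 4 held 10.58, 10.83, 11.03 and 11.13, and the siAirn-001.2 arrays 10.87, 10.79, 11.37 and 11.20. The groups overlapped, with changes of -0.16 ± 0.15 (SE; adjusted p = 0.679 in limma) and 0.00 ± 0.15 (adjusted p = 0.999). Inhbb, for the subunit of activin B, lay between 6.48 and 7.17 in all arrays, with changes of -0.04 ± 0.13 (adjusted p = 0.928) and 0.02 ± 0.13 (adjusted p = 0.997).

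Counted over the set, 3 of the 10 ligand genes passed the limma test with siAirn-001.1 (1 higher, 2 lower), where 5.96% of all genes passed (3.43% higher, 2.53% lower). The arrays of both groups did not overlap for 3 of the 10 (Tgfb2, Tgfb3 and Bmp4), against 7.98% of all genes. The median change of the set was -0.07, against -0.01 for all genes. Atrial cardiomyocyte markers moved with this comparison: the mean of the 9 measured lay between 10.94 and 11.09 in the siAirn-001.1 arrays and between 10.55 and 10.79 in the siScramble arrays, and 3 of 9 were called higher (Kcnj3, Tnni3 and Gja5). Of the other cell types' markers, 1 of 7 endothelial (Kdr, 0.71, adjusted p = 0.00205) and 1 of 5 smooth muscle markers (Des, 0.39, adjusted p = 0.0374) were called higher, and no fibroblast or macrophage marker was called. The array means of the endothelial list (6.62 to 6.76) and the smooth muscle list (10.94 to 11.01) overlapped those of siScramble (6.55 to 6.73 and 10.79 to 11.07). These marker genes were named after their values were seen, and the part of the markers in the ligand changes was not tested. Without siScramble arrays 5 and 6 the same 3 ligand genes were called, with 6.61% of all genes. Without siAirn-001.1 arrays 1 and 2, the arrays with Airn inside the siScramble range, and without siAirn-001.2 array 1, Bmp4 alone was called (6.27% of all genes) and Tgfb2 missed the threshold (-0.98, adjusted p = 0.0724). When siAirn-001.2 array 2 was left out as well, with the same siAirn-001.1 arrays, Tgfb2 was called at the same change (-0.98, adjusted p = 0.00765), and Bmp4 too (8.71% of all genes). Tgfb1 was called in neither of these 2 fits, with a log2 change of 0.32 in each (adjusted p = 0.319 and 0.224), against 0.67 with all arrays.

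With siAirn-001.2, 0 of the 10 ligand genes passed in limma, where 0.951% of all genes passed (0.48% higher, 0.47% lower), and 1 of 10 (Tgfb1) had an unadjusted p under 0.05, against 11.3% of all genes. No ligand gene had groups without overlap, against 3.74% of all genes. Of the marker lists, 1 atrial gene was called (Kcnj3, 0.67, adjusted p = 0.0164). The 95% interval of the fit was -1.05 to 0.06 for Tgfb2, -0.57 to 0.01 for Bmp4 and 0.04 to 0.76 for Tgfb1. The 4 arrays split by replicate number. Without siAirn arrays 3 and 4 of either reagent, Tgfb2 (-1.09, adjusted p = 0.0163) and Bmp4 (-0.61, adjusted p = 0.0122) were called in siAirn-001.2 with 1.55% of all genes, and without arrays 1 and 2, Tgfb3 was (0.39, adjusted p = 0.0385) with 6.36%. These fits kept all 6 siScramble arrays, of which 5 and 6 differed from 1 to 4 by -0.63 for Tgfb2, -0.19 for Bmp4 and 0.02 for Tgfb3. The reagent and the split among arrays cannot be told apart in them. The siScramble arrays serve both reagents, so the changes with each reagent are given side by side and not as independent repeats.

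Bmp4 was higher with siAirn-001.2 than with siAirn-001.1 by 1.02 ± 0.15 (SE) on the log2 scale (adjusted p = 0.00622 in limma), and the 4 arrays of each reagent did not overlap. The siScramble arrays do not enter this difference, but they do enter the spread estimated in the fit. Bmp4 was the 1 ligand gene of 10 called, where 1.01% of all genes passed (0.332% higher and 0.674% lower with siAirn-001.2), and the 1 of 10 without overlap, against 5.53% of all genes. Tgfb2 differed by 0.84 ± 0.29 (adjusted p = 0.188, 95% interval 0.23 to 1.44), Tgfb3 by 0.48 ± 0.14 (adjusted p = 0.110, 95% interval 0.19 to 0.77) and Tgfb1 by -0.27 ± 0.19 (adjusted p = 0.611, 95% interval -0.67 to 0.12). The atrial marker mean differed too, from 10.62 to 10.80 with siAirn-001.2 and from 10.94 to 11.09 with siAirn-001.1, and the atrial marker Gja5 (-0.62, adjusted p = 0.00694) and the endothelial marker Kdr (-0.64, adjusted p = 0.0273) were called; their part was not tested. Same-numbered arrays of the 2 reagents deviated together (r = 0.318 to 0.534). With that number as a block among the 8 siAirn arrays, Bmp4 (adjusted p = 0.0485) and Tgfb2 (adjusted p = 0.0276) were called, with 0.891% of all genes. Without the block and without the siScramble arrays, Bmp4 missed the threshold (adjusted p = 0.0755), as it did without siAirn arrays 3 and 4 (0.59, adjusted p = 0.166). Without siAirn-001.2 array 2, Tgfb3 was called as well (0.63, adjusted p = 0.0117).

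**Figure D2:**
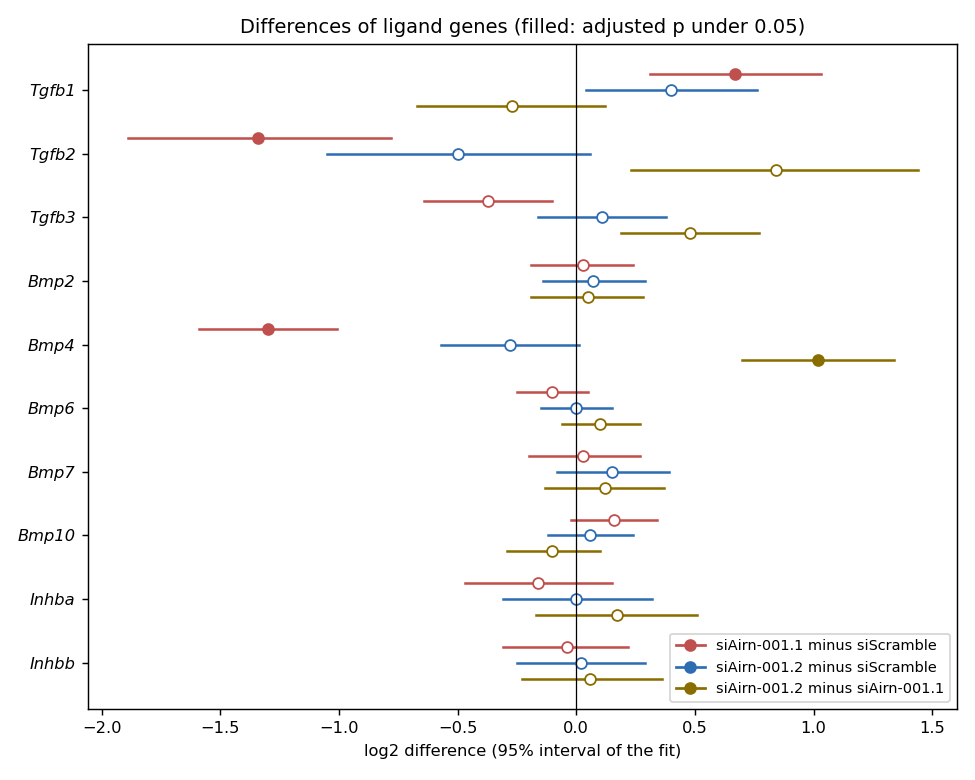
Log2 difference (horizontal axis) of each ligand gene for each reagent against siScramble and for siAirn-001.2 minus siAirn-001.1; points are limma estimates, filled where the adjusted p over all genes is under 0.05, and lines are 95% intervals of the fit, not adjusted for the number of genes. Tgfb1, Tgfb2 and Bmp4 are filled for siAirn-001.1, none for siAirn-001.2, and Bmp4 for the difference between the reagents.

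Averaged over both reagents, Bmp4 fell by 0.79 ± 0.11 (SE; adjusted p = 0.000945 in limma), Tgfb2 fell by 0.92 ± 0.22 (adjusted p = 0.0258) and Tgfb1 rose by 0.53 ± 0.14 (adjusted p = 0.0438). These were 3 of 10 genes (1 higher, 2 lower), where 4.13% of all genes passed (2.15% higher, 1.97% lower). None of the 10 had 8 siAirn arrays clear of the siScramble range, against 1.63% of all genes. The Tgfb2 call was lost without any single one of siScramble arrays 1 to 4 or siAirn-001.1 array 2 (adjusted p = 0.0506 to 0.0766), and the Tgfb1 call without any single one of siScramble arrays 1 to 4 or siAirn arrays 1 and 2 of either reagent (0.0621 to 0.123). With all 8 siAirn arrays as 1 group, which counts the gap between the reagents as noise, none of the 10 passed (adjusted p = 0.064 for Bmp4, 0.0734 for Tgfb2 and 0.0623 for Tgfb1). In the authors' deposited table for this comparison, the adjusted p was 0.138 for Bmp4, 0.158 for Tgfb2 and 0.133 for Tgfb1.

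Read by replicate number, the Tgfb2 signal and the Airn signal followed different orders within each reagent. This did not hold for every ligand gene. With siAirn-001.1, Inhbb kept the order of Airn, at 108.4, 104.5, 90.5 and 86.4% of the siScramble geometric mean in arrays 1 to 4. As a percentage of the siScramble geometric mean, Airn stood at 93.5, 89.2, 48.4 and 48.3 in siAirn-001.1 arrays 1 to 4 and at 96.2, 80.5, 41.4 and 45.5 in siAirn-001.2 arrays 1 to 4. Tgfb2 stood at 32.5, 29.5, 46.0 and 55.9 with siAirn-001.1 and at 49.6, 44.4, 109.2 and 104.1 with siAirn-001.2. For both reagents, Tgfb2 was lowest and Tgfb1 highest in arrays 1 and 2, the arrays in which Airn was highest. In siScramble arrays 5 and 6 Airn stood at 105.5 and 103.3. There Tgfb2 and Tgfb1 differed from siScramble arrays 1 to 4 by -0.63 and 0.46 on the log2 scale. Across genes, each correlated more with arrays 1 and 2 than with arrays 3 and 4 of the same reagent. These r were 0.995 to 0.9965 against 0.9911 to 0.9938 for siAirn-001.2, and 0.991 to 0.9946 against 0.9888 to 0.9921 for siAirn-001.1. What set these arrays apart was not tested. Bmp4 stood at 45.8, 41.1, 35.0 and 41.3 with siAirn-001.1, so it was low in all 4 arrays, and at 70.4, 60.8, 109.9 and 98.1 with siAirn-001.2. Over the 14 arrays, which share reagents and replicate numbers, Pearson's r with Airn was -0.02 for Tgfb2, 0.01 for Tgfb1 and 0.25 for Bmp4. The strongest positive r of a ligand gene with Airn was 0.56 for Inhbb, and the strongest negative was -0.45 for Inhba. All these r pool siScramble with siAirn arrays, so a weak r does not exclude a shared or opposite order within a reagent. Among the ligand genes r was 0.89 between Tgfb2 and Bmp4 and -0.91 between Tgfb1 and Tgfb2.

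**Figure D3:**
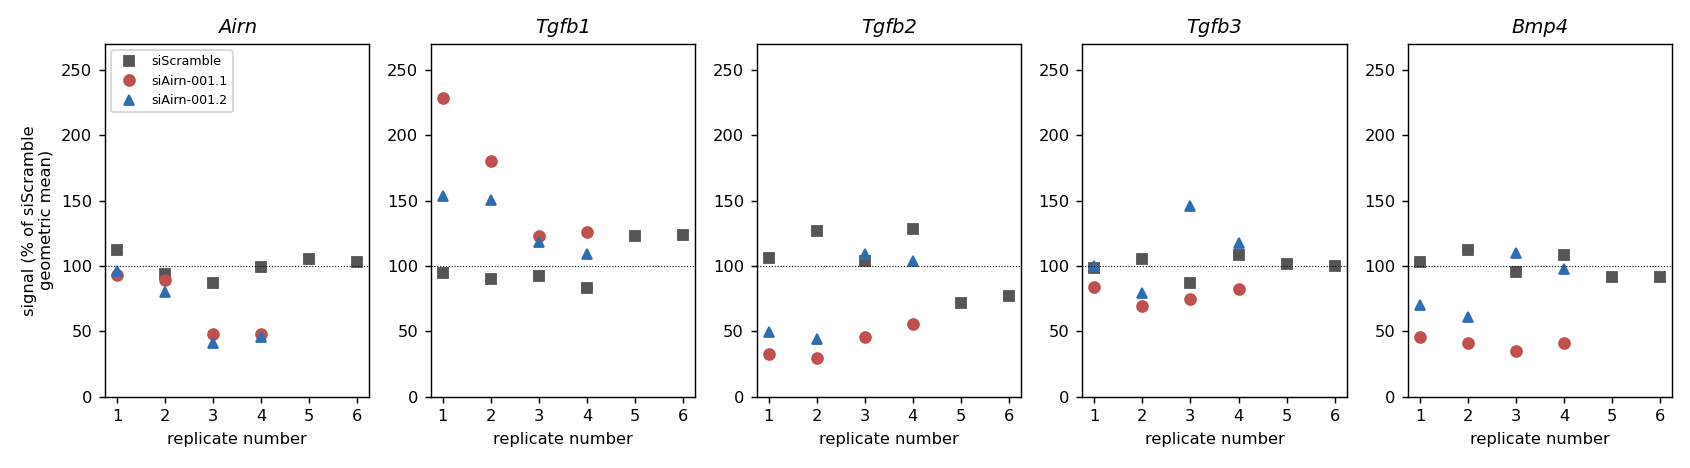
Signal as a percentage of the siScramble geometric mean (vertical axis, from 0) against replicate number for Airn and 4 ligand genes; squares are siScramble, circles siAirn-001.1 and triangles siAirn-001.2, and each point is 1 array. Airn is between 80.5 and 96.2 in siAirn arrays 1 and 2 and between 41.4 and 48.4 in arrays 3 and 4, while Tgfb2 in siAirn-001.2 is at 49.6 and 44.4 in arrays 1 and 2 and at 109.2 and 104.1 in arrays 3 and 4.

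Among receptors and co-receptors, 16 of 17 listed genes were measured. With siAirn-001.1, 3 were called higher and 1 lower, where 3.43% of all genes were called higher and 2.53% lower. Hfe2, the BMP co-receptor hemojuvelin, rose by 0.82 ± 0.17 (SE; adjusted p = 0.0100 in limma), and Rgma, a BMP co-receptor of the same repulsive guidance family, by 0.74 ± 0.09 (adjusted p = 0.000238). The Hfe2 rise was called in all 14 fits that left out 1 array, and was 0.58 without siScramble arrays 5 and 6 (adjusted p = 0.0163). Its call was lost without siAirn arrays 1 and 2 (0.71, adjusted p = 0.0563) or without those with Airn inside the siScramble range (0.71, adjusted p = 0.0924). Tgfbr3, the co-receptor betaglycan that presents TGF-beta2 to the signalling receptors, rose by 0.65 ± 0.15 (adjusted p = 0.0156). The 1 lower was Tgfbr1, the TGF-beta type I receptor kinase, named after its values were seen (-0.51 ± 0.12, adjusted p = 0.0209). Its siAirn-001.1 arrays 1 to 4 held 9.31, 9.16, 8.57 and 8.65 against 9.34 to 9.56 with siScramble, and the call was lost without array 3 (adjusted p = 0.0703), array 4 (0.0756) or siScramble arrays 5 and 6 (0.0535). With siAirn-001.2, where 0.951% of all genes were called, Rgma alone was (0.43 ± 0.09, adjusted p = 0.0406), a call lost in 9 of the 14 fits that left out 1 array. Between the reagents, Hfe2 (-1.01 ± 0.19, adjusted p = 0.0210) and Tgfbr3 (-0.72 ± 0.16, adjusted p = 0.0432) were lower with siAirn-001.2. These calls were lost in 3 of those fits for Hfe2 (without siAirn-001.1 array 4 or siAirn-001.2 array 3 or 4, adjusted p up to 0.0964) and in 11 for Tgfbr3 (up to 0.186), and the Tgfbr3 rise with siAirn-001.1 was lost without its array 1 (adjusted p = 0.0547).

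Of 15 measured genes that keep TGF-beta latent or release it, 2 were higher and 3 lower with siAirn-001.1, and 1 was higher and 1 lower with siAirn-001.2; over all genes 5.96% and 0.951% were called. Ltbp3, a latent TGF-beta binding protein, rose with both reagents (0.31 ± 0.08, adjusted p = 0.0297, and 0.56 ± 0.08, adjusted p = 0.00371 in limma). Fbn2, the microfibril protein fibrillin-2, fell with both (-0.33 ± 0.09, adjusted p = 0.0388, and -0.58 ± 0.09, adjusted p = 0.00692). In siAirn-001.2, both calls held in all 14 fits that left out 1 array. The siAirn-001.1 calls of Ltbp3 and Fbn2 were not followed in such fits. With siAirn-001.1, Itgav, the integrin alpha subunit of TGF-beta activating integrins, fell by 0.40 ± 0.07 (adjusted p = 0.00345). Furin, a convertase that cleaves the precursors, rose by 0.55 ± 0.15 (adjusted p = 0.0345), and Thbs1, thrombospondin-1, which can activate latent TGF-beta, fell by 0.96 ± 0.26 (adjusted p = 0.0375). The Furin and Thbs1 calls were lost in 8 and 7 of those 14 fits. Bmp1, a protease despite its name, was higher with siAirn-001.2 than with siAirn-001.1 by 0.38 ± 0.08 (adjusted p = 0.0311), a call lost in 6 of those fits, each without 1 of the siAirn-001.1 arrays or siAirn-001.2 array 3 or 4 (up to 0.135).

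Of the 8 SMAD genes, Smad9, a BMP-type SMAD, rose by 0.25 ± 0.07 (SE; adjusted p = 0.0310 in limma) and Smad1, of the same type, fell by 0.35 ± 0.08 (adjusted p = 0.0165) with siAirn-001.1; none was called with siAirn-001.2. The share of all genes called with siAirn-001.1, beside which the counts in the SMAD, antagonist, other ligand and inhibitor lists stand, was 5.96%. Of 16 measured extracellular antagonists, Inha, whose product pairs with the beta subunits to form inhibins, rose by 0.37 ± 0.07 (adjusted p = 0.00617), and Crim1, a membrane protein that binds BMPs, fell by 0.38 ± 0.09 (adjusted p = 0.0180) with siAirn-001.1. The Smad1 call was lost without siAirn-001.1 array 1 or 2 (adjusted p up to 0.0633), the Crim1 call without array 1 or 4 (up to 0.056) and the Smad9 call in 6 of the 14 fits that left out 1 array (up to 0.103). Inha was also the 1 called of 25 other measured ligands of the superfamily, a list that holds it too. Of 13 intracellular inhibitors, Ski, a SMAD corepressor, fell by 0.28 ± 0.08 with siAirn-001.1 (adjusted p = 0.0450), a call lost in 10 of those fits (up to 0.133).

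Of 27 genes known to respond to TGF-beta or BMP, 2 were called for siAirn-001.1, a share near the 5.96% of all genes, and 0 for siAirn-001.2, where 0.951% of all genes were called. With siAirn-001.1, Hey1, a transcriptional repressor induced by Notch and BMP, rose by 0.45 ± 0.11 (SE; adjusted p = 0.0236 in limma), and Cyr61, a matrix protein gene, fell by 0.58 ± 0.15 (adjusted p = 0.0295). Both calls were lost without siScramble arrays 5 and 6 (adjusted p = 0.0559 and 0.0943). The Hey1 call was also lost without siAirn-001.1 array 1, 3 or 4 (up to 0.0679), and the Cyr61 call in 6 of the 14 fits that left out 1 array (up to 0.0905). Hey1 was lower with siAirn-001.2 than with siAirn-001.1 by a log2 difference of -0.71 ± 0.12 (adjusted p = 0.0136), and the arrays of the reagents did not overlap (7.44 to 7.77 and 8.17 to 8.44); it was lost without siAirn-001.1 array 4 or siAirn-001.2 array 3 or 4 (adjusted p up to 0.0681). The median change of the list was -0.05 for siAirn-001.1 and -0.01 for siAirn-001.2, against -0.01 and 0 over all genes.

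**Figure D4:**
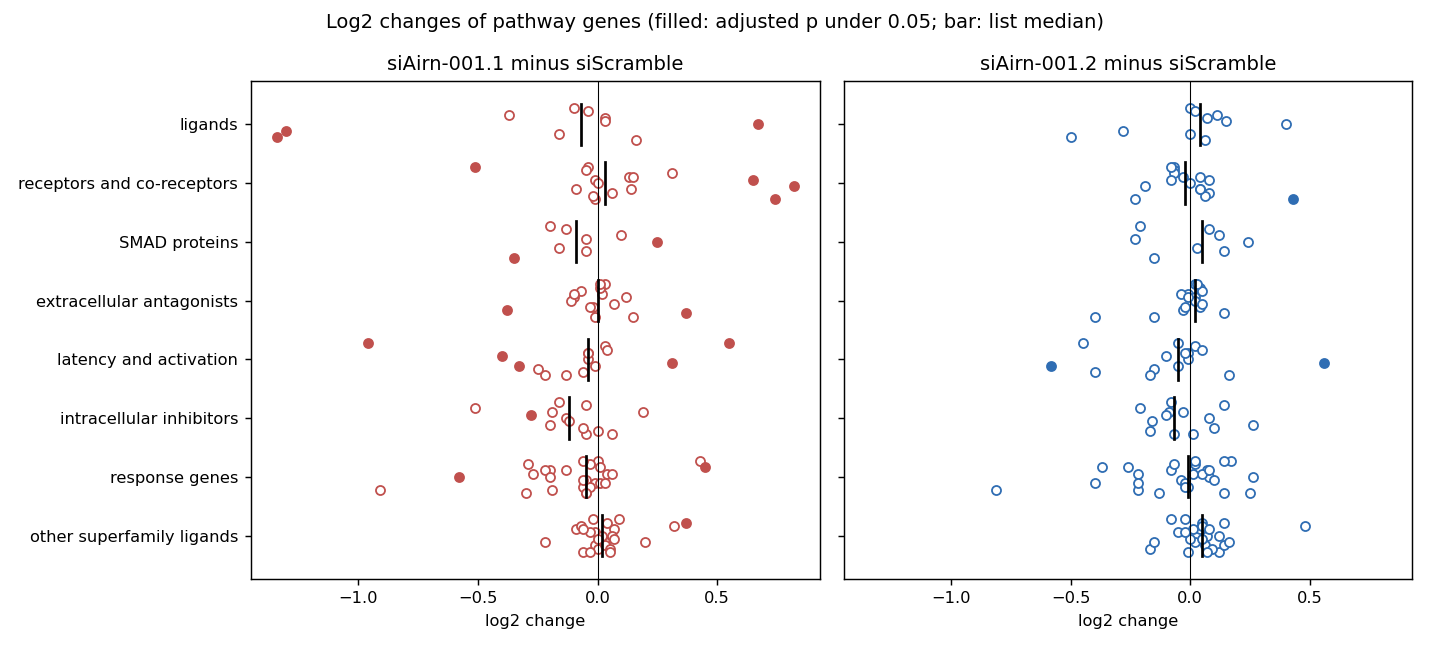
Log2 change (horizontal axis) of every measured gene of 8 pathway lists for siAirn-001.1 (left) and siAirn-001.2 (right), each against the same siScramble arrays; points are genes, filled where the adjusted p over all genes is under 0.05, vertical bars are list medians, and vertical scatter is for legibility. The ligands hold the lowest points with siAirn-001.1 (Tgfb2 at -1.34 and Bmp4 at -1.30), and list medians lie between -0.12 and 0.05 over both panels.

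The genes whose signals over the 14 arrays were most like that of Tgfb2 were Nsun2, an RNA methyltransferase gene (Pearson's r = 0.98), Lyar, a nucleolar protein gene (0.97), and Papss2, which makes the sulfate donor for sulfation (0.97). Within the 8 siAirn arrays these r were 0.987, 0.964 and 0.961, and within the 6 siScramble arrays 0.90, 0.97 and 0.98. For Bmp4 they were Ugdh, which makes UDP-glucuronate for glycosaminoglycans (0.98), Myh9, non-muscle myosin heavy chain (0.98), and Copa, a coat protein of Golgi vesicles (0.97), with r of 0.988, 0.997 and 0.976 within the siAirn arrays and 0.62, 0.83 and 0.82 within siScramble. Ugdh fell with siAirn-001.1 by 1.1 on the log2 scale (adjusted p = 8.28e-05 in limma) and was higher with siAirn-001.2 than with siAirn-001.1 by 0.94 (adjusted p = 0.00495); as it was chosen for its likeness to Bmp4 over these arrays, this order is a description.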

How the data were processed

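The authors deposited log2 expression values for 14 Affymetrix arrays, per the file headers, together with a log2 difference and p-values (raw and adjusted) that compare all siAirn with all siScramble arrays. RMA and limma are named in the submitters' processing notes; the array model, the build and the annotation are not stated there. RMA brings the arrays to near-equal distributions (medians 7.45 to 7.55), which hides any shift common to most genes. No further normalisation was applied. A linear model of 3 group means was fitted to all 14 arrays and 20193 genes with limma 3.58.1 in R 4.3.3 (lmFit, eBayes; 11 residual and 5.31 prior degrees of freedom), two-sided, with Benjamini-Hochberg adjustment over all genes and a threshold of 0.05 ("called"). The fit was tested on simulated data. The number of arrays limits the precision; the median SE was 0.0876 for a single reagent.

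The ligand genes, gene lists, tests and alternatives were chosen with earlier results of these data known. Named genes are the 10 ligands, Airn, up to 3 called genes with the largest change per list and contrast, and the 3 genes most correlated with each of the 2 ligands that changed most in the mean contrast. Replicate numbers paired the reagents (r of deviations from the group means 0.318 to 0.534 for 4 pairs) but not siScramble with them (-0.429 to 0.234). Differently numbered siScramble and siAirn arrays gave r from -0.473 to 0.456. Equal numbers therefore did not mark the siScramble arrays most like a siAirn array, and the block over all arrays rests on those numbers. Alternatives were a replicate block, median centring, array weights, an intensity trend, leaving out the dimmest 25% of genes, fits of only the groups compared, 1 siAirn group, the second table (the same values to within 0.005), a 1.5-fold threshold and leaving out each array. Leaving out siScramble arrays 5 and 6, siAirn arrays 1 and 2 or 3 and 4, or those with Airn inside the siScramble range, and blocking within the siAirn arrays, were added after the data were seen. Of the listed genes, 8 were not analysed here, Tgfbr2 among them.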

Additional observations from a re-analysis of the deposited data

Results flagged for a closer look

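Of 84 groups of arrays examined (28 genes in 3 groups), 2 held an array far from the others; chance gives about 1 in 20 groups. Bmp2 was at 5.79 in siAirn-001.1 array 3, with the other arrays of that group between 5.50 and 5.55. Bmp10 was at 5.22 in siAirn-001.2 array 2, with the others between 4.98 and 5.00. Both genes are dim, and neither was called in any contrast.

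The limma test of siAirn-001.2 minus siAirn-001.1 called 1.01% of all genes. Among the named genes, of which Hfe2, Tgfbr3, Bmp1 and Hey1 were named because they were called in this contrast, the log2 difference was 1.02 for Bmp4, -1.01 for Hfe2, -0.72 for Tgfbr3, 0.38 for Bmp1 and -0.71 for Hey1. With the replicate number as a block within the 8 siAirn arrays, Bmp1 missed the threshold (adjusted p = 0.0838) and the other 4 were called.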

How the results depend on the processing

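Leaving out each array in turn gave 2 to 4 ligand genes called with siAirn-001.1, 0 to 0 with siAirn-001.2, 1 to 3 for the mean of both and 1 to 2 between the reagents. Bmp4 was called in all 14 such fits with siAirn-001.1, in the mean and between the reagents, and Tgfb2 in all 14 with siAirn-001.1. In the mean, Tgfb2 was lost in 5 of them (without siScramble array 1, 2, 3 or 4 or siAirn-001.1 array 2, adjusted p up to 0.0766) and Tgfb1 in 8 (without siScramble array 1, 2, 3 or 4 or array 1 or 2 of either reagent, up to 0.123). Without the siAirn arrays whose Airn lay inside the siScramble range, 1 was called with siAirn-001.1 and 1 in the mean. Without siAirn arrays 1 and 2, 2 were called with siAirn-001.1 (Bmp4 and Tgfb2, 8.71% of all genes), 1 with siAirn-001.2, 1 in the mean and 3 (Bmp4, Tgfb2 and Tgfb3) between the reagents; without arrays 3 and 4, these counts were 4, 2, 3 and 0. Against siScramble, the counts without these arrays hold the reagent and the split among arrays together, and the parts cannot be told apart. With all siAirn arrays as 1 group 0 were called, array weights gave 2 between the reagents (Bmp4 and Tgfb3), and fitting only the groups compared gave 0 there. With the replicate block over all arrays, whose numbers did not pair siScramble with the rest, 4 were called with siAirn-001.1 (9.14% of all genes, Inhba added at -0.33, adjusted p = 0.0468), 1 with siAirn-001.2 (Tgfb1 at 0.55, adjusted p = 0.0304; 2.79%), 3 in the mean (7.68%) and 1 between the reagents (1.45%); Airn was then called in each contrast against siScramble (adjusted p = 0.0405, 0.0418 and 0.0169). With that block within the 8 siAirn arrays, 2 were called between the reagents. Array weights called 9.44%, 4.80%, 9.54% and 2.52% of all genes in the 4 contrasts, and leaving out siScramble arrays 5 and 6 raised the share with siAirn-001.2 to 2.05%. Centring, the trend and the second table left the counts over all genes within 1.5 times.

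Over 776 values of single genes under settings other than leaving out 1 array, 657 kept direction and side of the threshold, 64 lost the call, 17 gained it and 38 changed sign; the cause was not tested. Sign changes were all in values that were not called. Against siScramble with siAirn-001.1 they were Bmp2 at -0.05 without arrays 3 and 4, Inhba at 0.02 without arrays 1 and 2 or without those with Airn in range, and Inhbb at 0.05 (block; siScramble 5 and 6 left out), 0.02 (array weights) and 0.09 (without arrays 3 and 4). With siAirn-001.2 and without arrays 1 and 2 they were Tgfb2 at 0.09, Bmp4 at 0.05, Bmp2 at -0.03, Bmp7 at -0.02, Bmp10 at 0.00 and Inhbb at -0.22; without arrays 3 and 4, Tgfb3 at -0.17, Bmp6 at -0.01 and Inhba at -0.23; with the block or without siScramble 5 and 6, Bmp10 at -0.01 and Inhba at -0.16; with array weights, Bmp10 at 0.00 and Inhbb at -0.03; and without arrays with Airn in range, Inhbb at 0.00. In the mean they were Tgfb3 at 0.02 and Inhba at 0.13 without arrays 1 and 2, Inhba at 0.05 without those with Airn in range, Bmp6 at 0.01 and Inhbb at 0.09 with the block or without siScramble 5 and 6, and Inhbb at 0.18 without arrays 3 and 4. Between the reagents they were Tgfb1 at 0.00 and Bmp2 at -0.01 without arrays with Airn in range, Bmp2 at -0.14, Bmp7 at -0.05 and Inhbb at -0.04 without arrays 1 and 2, Bmp10 at 0.04 without arrays 3 and 4, and Inhbb at -0.05 with array weights. Leaving out 1 array also changed signs, with ranges for siAirn-001.1 of -0.04 to 0.09 (Bmp2), -0.02 to 0.10 (Bmp7) and -0.10 to 0.01 (Inhbb); for siAirn-001.2 of -0.04 to 0.26 (Tgfb3), -0.02 to 0.13 (Bmp2), -0.03 to 0.05 (Bmp6), -0.10 to 0.10 (Inhba) and -0.12 to 0.11 (Inhbb); for the mean of -0.08 to 0.00 (Bmp6) and -0.08 to 0.05 (Inhbb); and between the reagents of -0.05 to 0.11 (Bmp2), -0.07 to 0.16 (Inhbb) and -0.32 to 0.09 (Airn).

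The 4 arrays of each reagent and the spread by replicate number limit what can be called, and RMA limits what dim probes show.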
